A study of Rattus norvegicus with 6 samples.

Results

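Among 23139 genes counted in rat microglia, 22 were nearly silent after lipopolysaccharide (LPS) alone and clearly counted after LPS given together with siponimod. A gene was chosen when it had at most 10 raw counts in each of the 3 LPS libraries and at least 50 in each of the 3 LPS/siponimod libraries. Of 25 genes that met these limits, Fst, Snap25 and Faslg were left aside by name, as were Cdkn1c, Nr4a3, Areg and Ereg, which did not meet them. The 22 genes were thus selected on their raw counts in these same libraries, and their rise is a description and was not tested. The 22 genes were Ranbp3l, Ypel4, Rgcc, Cd34, Cd55, Klra5, Klrb1a, Dcstamp, Paqr5, Slc4a11, Gsg1, Col4a3, Dsg2, Lmo7, Prickle1, Prss56, Lipn, Soat2, Osbpl3, Plcxd2, Cyp27b1 and Rab30. By what they encode, 3 act in the nucleus or in the cell cycle, 8 sit in the cell membrane, 5 belong to matrix, junctions or cell polarity, and 6 handle lipids, sterols or vesicles.

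Microglia had been shaken off mixed cortical cultures of postnatal day 1 Wistar rats and enriched by magnetic sorting for CD11b/c. All cells received LPS, part of the outer membrane of bacteria, at 100 ng/ml. In the LPS/siponimod group 50 µM siponimod, a modulator of sphingosine-1-phosphate receptors, was added, and the LPS group received its vehicle, DMSO. Each group held 3 biological replicates, so that the experiment had 6 libraries of polyA-selected RNA. Unstimulated cells and cells given siponimod without LPS were not analysed here, and every value therefore compares LPS/siponimod with LPS.

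Microglia are the resident macrophages of the brain. LPS is sensed by Toll-like receptor 4, which switches on a large inflammatory programme through NF-kB and interferon regulatory factors. Many genes of other tissues are held silent in macrophages by closed chromatin or by the lack of an activator, and a gene can leave this state when a stimulus supplies that activator. Expression of such a gene in microglia does not by itself mark the tissue for which the gene is known.

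Total counts were 39484979, 38301365 and 38080379 in LPS replicates 1, 2 and 3 and 46643859, 43336006 and 38857441 in LPS/siponimod replicates 1, 2 and 3. At this depth 1 read was worth between 0.0214 and 0.0263 CPM (reads scaled to the library total). A gene at 0 in a library could thus have held up to 3 reads by counting error alone, and was not detectable rather than absent. The 22 genes together held 100, 56 and 71 reads under LPS and 6166, 4601 and 5954 under LPS/siponimod. Their summed level was 2.53, 1.46 and 1.86 CPM with LPS and 132, 106.2 and 153 CPM with LPS/siponimod. In the LPS libraries 2, 7 and 4 of the 22 genes had no read, and in the LPS/siponimod libraries none had 0. All 22 passed the filter on low counts used for the test across all genes, and 22 of 22 counted as upregulated there. Over the 11977 genes tested, 13.6% were upregulated and 11.7% downregulated by edgeR's quasi-likelihood test (Benjamini-Hochberg adjusted p no higher than 0.05, fold change 1.5 or more). Without the filter the upregulated share was 8.38% of 17057 genes. The CPM of all LPS/siponimod libraries lay above those of all LPS libraries for 29.4% of the genes tested and below for 19.4%. The 22 of 22 follows from how the genes were chosen.

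Replicate 3 stood apart in both groups by markers of other brain cells. In bulk RNA, fewer cells of a type and less RNA per cell cannot be told apart. The neuroendocrine secretory list, led by the secretogranin gene Scg2, summed to 3.12, 2.35 and 104.8 CPM under LPS and to 4.54, 5.42 and 169 CPM under LPS/siponimod. Scg2 had 3, 6 and 1101 reads against 9, 24 and 2565, and the neuropeptide gene Npy 1, 0 and 696 against 6, 11 and 755. The neuronal gene Map2 had 0, 3 and 162 reads against 1, 1 and 115, and the precursor cell gene Pdgfra 5, 4 and 284 against 1, 4 and 81. Olig1, of the oligodendrocyte lineage, had 1, 5 and 515 against 2, 3 and 17, and the astrocyte gene Gfap 1, 2 and 88 against 0, 0 and 1, so that these were high in replicate 3 of LPS.

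Summed over whole lists, neuronal markers other than Snap25 reached 8.94, 6.47 and 14.6 CPM under LPS and 4.74, 8.54 and 17.6 CPM under LPS/siponimod. Tubb3 led this list, and Slc17a6 was at 0. Without Tubb3 the sums were 7.395, 5.56 and 8.38 against 0.407, 2.63 and 5.30 CPM, lower in all LPS/siponimod libraries. Astrocyte markers, led by Slc1a3, gave 39.9, 21.2 and 24.5 against 27.5, 27.7 and 62.6 CPM, with Gjb6 at 0. Oligodendrocyte and precursor markers gave 141, 137 and 151 against 49.0, 70.0 and 69.7 CPM, and 5.45, 5.90 and 40.9 against 11.4, 10.8 and 30.3 CPM without Cnp, the gene with the most reads. Each of the 22 genes also kept to both limits in replicates 1 and 2 alone, as the rule requires. Whether these cells have a part in the levels of replicate 3 was not tested.

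The plot of counts by gene shows how the limits divide the libraries. Of 10455 genes with at most 10 reads in each LPS library, 0.239% met the whole rule before any gene was left out by name. The mirrored rule, with the groups exchanged, found 1 gene among 10247. This gene was Ecscr, which encodes an endothelial surface protein and had 159, 61 and 152 reads under LPS and 8, 4 and 6 under LPS/siponimod. Under limits of 15 and 40 reads the rule found 51 genes and the mirrored rule 7. Under limits of 5 and 100 reads they found 5 and 0. With counts scaled to the mean library size, the rule found 18 genes and the mirrored rule 2.

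**Figure D1:**
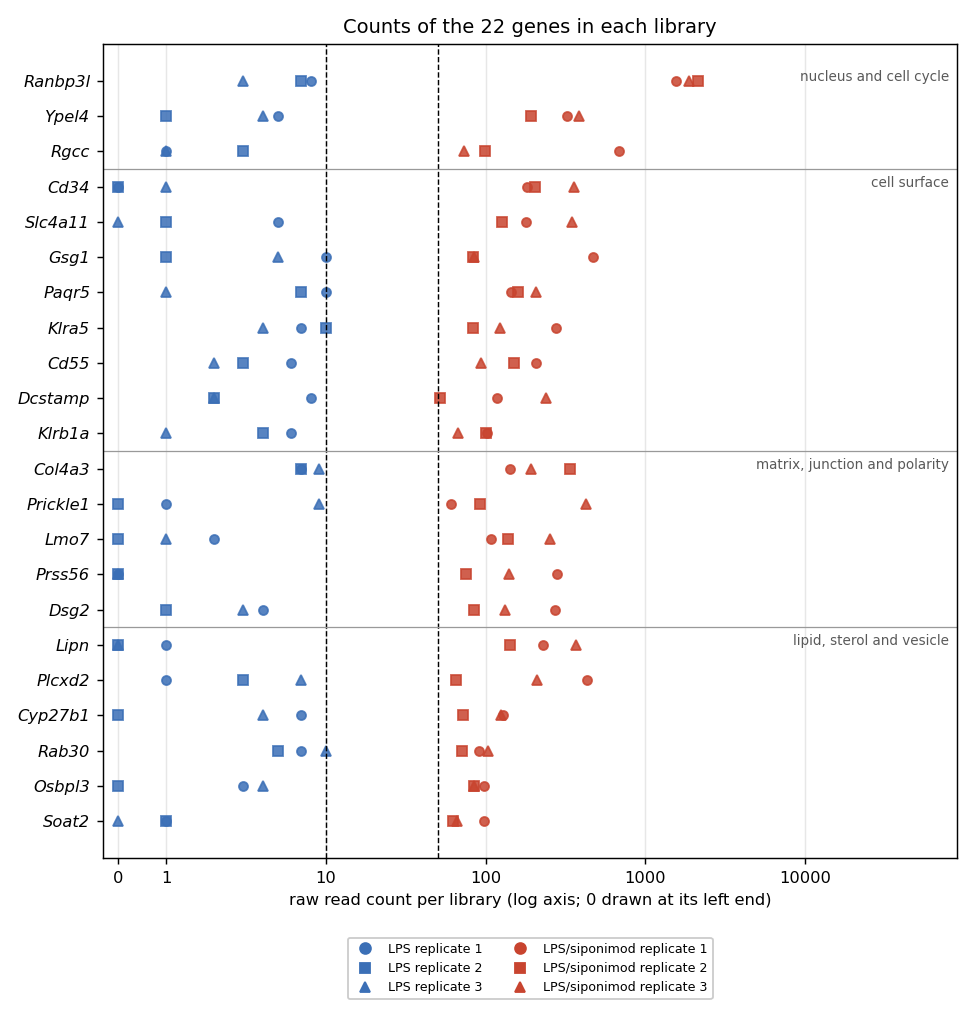
Raw read counts of the 22 genes in each of the 6 libraries on a log axis (0 is drawn at the left end), with symbols for the replicate and colours for the group; dashed lines mark 10 and 50 reads. All blue LPS points lie at or left of 10 and all red LPS/siponimod points right of 50, as the rule requires, and Ranbp3l lies farthest to the right (1552 to 2133 reads).

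**Figure D2:**
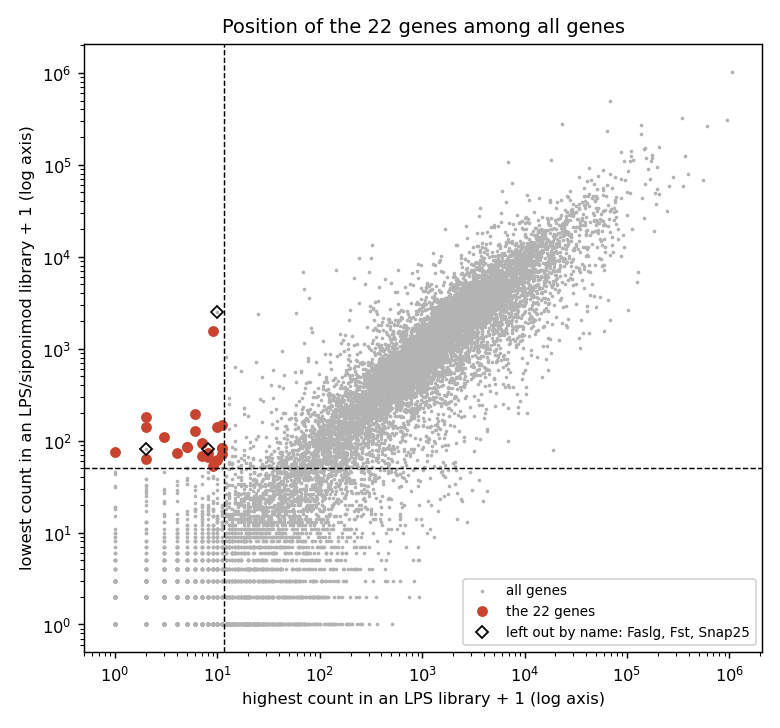
Each point is a gene, with its highest count among the 3 LPS libraries on the x axis and its lowest count among the 3 LPS/siponimod libraries on the y axis (both plus 1, log axes). The 22 genes (red) and the 3 that were left out by name (open diamonds) fill the upper left corner cut by the dashed lines at 10 and 50 reads, away from the diagonal on which most genes lie.

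The nuclear and cell cycle genes held the member with the most reads. Ranbp3l encodes a Ran-binding protein that helps to export SMAD proteins from the nucleus, and it had 8, 7 and 3 reads under LPS and 1552, 2133 and 1886 under LPS/siponimod. All 3 LPS/siponimod libraries were high and close to each other, at 43.7 ± 9.02 CPM against 0.155 ± 0.0665 CPM (SD, n = 3 each). The ratio of pooled counts, scaled to the library totals, was 278 (95% exact counting interval 176 to 470.0). Counting intervals here and below do not include the spread between replicates. Ypel4, one of the yippee-like zinc-binding proteins, had 5, 1 and 4 reads under LPS and 322, 192 and 384 under LPS/siponimod. Rgcc, a regulator of the cell cycle that is induced by complement attack in other cells, had 1, 3 and 1 against 679, 99 and 73. As the rule requires, the groups did not overlap for either gene, but replicate 1 of LPS/siponimod carried most of the Rgcc reads.

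Relatives of Ranbp3l did not pass the test. Ranbp3 itself had 2908, 2910 and 2669 reads under LPS and 3547, 3048 and 3180 under LPS/siponimod (log2 FC -0.02, SE 0.11, adjusted p = 0.886 by the quasi-likelihood test of edgeR; SE, standard error). None of the 5 tested genes among Ranbp3, Ran, Xpo1 and the receptor-activated Smad1, Smad5 and Smad9 was called, with a median log2 FC of 0.01. Of the other yippee-like genes Ypel5 rose by a log2 FC of 1.13 (SE 0.18, edgeR adjusted p = 0.0107), and without LPS replicate 2 or LPS/siponimod replicate 1 its adjusted p was 0.0602 or 0.0537. Ypel2 and Ypel3 had log2 FC of 0.75 and 0.35 and missed the threshold, although the fit blocked on the replicate number counted Ypel2 as upregulated (adjusted p = 0.0206).

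The membrane proteins were the largest of the 4 groups. Cd34, a sialomucin of blood progenitors and endothelium, had 0, 0 and 1 reads under LPS and 181, 203 and 357 under LPS/siponimod. With a single LPS read its ratio of pooled counts was 666, and the exact counting interval ran from 119 to 26360. Cd55 encodes decay-accelerating factor, which dismantles complement convertases on the cell's own surface, and had 6, 3 and 2 reads against 206, 151 and 94. In both genes the lowest LPS/siponimod library was above the highest LPS library, as the rule requires.

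A pair of the membrane proteins belongs to the killer lectin-like receptors, known from natural killer cells. Klra5, of the Ly49 type, had 7, 10 and 4 reads under LPS and 276, 83 and 123 under LPS/siponimod. Klrb1a, which encodes the NKR-P1A receptor, had 6, 4 and 1 against 102, 100 and 67. Klrb1a was even over its 3 LPS/siponimod libraries, while Klra5 was highest in replicate 1. The Ly49 genes are near-identical copies of one another, and in the GRCr8 assembly Klra5 overlaps Ly49s7, so that reads of Klra5 may belong in part to a relative. Ly49s7 itself had 5, 7 and 0 reads under LPS and 0, 3 and 0 under LPS/siponimod.

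Dcstamp encodes a membrane protein needed for the fusion of macrophages into osteoclasts and giant cells. Its counts were 8, 2 and 2 under LPS and 118, 52 and 240 under LPS/siponimod. Paqr5, a membrane progestin receptor, had 10, 7 and 1 against 145, 159 and 206. Slc4a11, a transporter of the corneal endothelium, had 5, 1 and 0 against 180, 126 and 345. Paqr5 was the most even of these 3, and both Dcstamp and Slc4a11 were highest in LPS/siponimod replicate 3. Gsg1, known from male germ cells, had 10, 1 and 5 reads under LPS and 473, 83 and 85 under LPS/siponimod, with most of them in replicate 1. In GRCr8 Gsg1 overlaps Fam234b, and the study's handling of strand is not stated, so that reads of these genes cannot be told apart with certainty. Fam234b moved the other way, from 472, 746 and 699 reads to 242, 415 and 248.

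The numbers of called relatives of the membrane proteins are small and stand beside 13.6% upregulated and 11.7% downregulated of all genes tested. Of 17 other killer lectin-like receptor genes, 14 had at most 10 reads in every library. Among the remaining 3, Klrg2 rose (log2 FC 1.99, SE 0.53, edgeR adjusted p = 0.0376), the activating receptor gene Klrk1 fell by 1.41 on the log2 scale (SE 0.34, adjusted p = 0.0285), and Klra2 had a log2 FC of -0.10 (adjusted p = 0.895). The calls for Klrg2 and Klrk1 were each lost in fits without 1 library, with adjusted p of up to 0.142 and 0.114. Of other complement regulators, Cd59, the inhibitor of the membrane attack complex, had a log2 FC of -0.95 (adjusted p = 0.36) and the Cd55-like regulator gene Cr1l had 0.41 (adjusted p = 0.124), and neither passed.

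Of 7 tested relatives of Paqr5 only Paqr3 was called, and it fell by 1.39 on the log2 scale (SE 0.33, edgeR adjusted p = 0.0288). Leaving out single libraries raised its adjusted p to as much as 0.133. Of 4 tested genes named after SLC4 transporters (Slc4a2, Slc4a5, Slc4a7 and Slc4a1ap, which encodes an adaptor and not a transporter), the anion exchanger gene Slc4a2 (log2 FC 0.66, adjusted p = 0.0205) and the sodium bicarbonate cotransporter gene Slc4a7 (1.94, adjusted p = 0.0382) rose, with adjusted p of up to 0.087 and 0.129 without 1 library. The Cd34 relative Podxl2 had 10, 4 and 55 reads under LPS and 14, 12 and 124 under LPS/siponimod (adjusted p = 0.603), with replicate 3 high in both groups.

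Among matrix and junction genes, Col4a3 encodes a chain of type IV collagen that is known from the glomerular basement membrane. It had 7, 7 and 9 reads under LPS and 141, 336 and 193 under LPS/siponimod, or 0.199 ± 0.0326 against 5.25 ± 2.38 CPM (SD, n = 3 each). Dsg2, a desmosomal cadherin, had 4, 1 and 3 reads against 272, 84 and 132. Lmo7, a LIM domain protein of cell junctions, had 2, 0 and 1 against 108, 137 and 251, a ratio of pooled counts of 149 with an exact counting interval from 50.6 to 724. The groups lay apart for all 3 genes, as the rule requires, and the highest LPS/siponimod library differed between the genes.

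Prickle1, a planar cell polarity protein, had 1, 0 and 9 reads under LPS and 61, 92 and 424 under LPS/siponimod, and replicate 3 was the highest in both groups. Prss56, which encodes a serine protease known from the retina, was the only one of the 22 genes with no read in any LPS library. Its 281, 75 and 139 reads with LPS/siponimod corresponded to 3.78 ± 2.15 CPM (SD, n = 3). Set against 3 reads per LPS library, Prss56 was at least 48.6-fold higher. Against the same floor, the genes with 1 to 3 LPS reads in all had ratios of 76.2 (Cd34), 75.7 (Lipn), 51.2 (Lmo7) and 22.4 (Soat2), each below the ratio of their pooled counts.

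Among relatives of the matrix and junction genes, Col4a4 and Dsp were upregulated, 1 of 3 tested type IV collagens and 1 of 5 tested desmosome genes. Col4a4, whose product assembles with that of Col4a3 and whose gene lies next to it in GRCr8, had 23, 21 and 13 reads under LPS and 793, 1317 and 715 under LPS/siponimod (log2 FC 5.39, SE 0.37, edgeR adjusted p = 0.00248). Its 3 LPS/siponimod libraries were all above all LPS libraries, and it passed in each fit without 1 library (highest adjusted p = 0.0274). The common chains Col4a1, with 61, 38 and 268 against 37, 93 and 218 reads, and Col4a2 had log2 FC of -0.27 and 0.14 (adjusted p = 0.851 and 0.859). Col4a5 and Col4a6 had at most 3 reads in any library.

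Desmoplakin (Dsp), the plaque protein of desmosomes, had 14, 6 and 8 reads under LPS and 145, 246 and 359 under LPS/siponimod (log2 FC 4.52, SE 0.56, edgeR adjusted p = 0.00703). It too passed without any single library, with an adjusted p of at most 0.0431. The desmocollin gene Dsc2 had 20, 1 and 2 reads against 310, 34 and 42, a pattern led by replicate 1 in both groups. Dsc2 missed the threshold (adjusted p = 0.0825), and the fit blocked on the replicate number counted it as upregulated (edgeR adjusted p = 0.00571). Jup and Pkp4, which encode plakoglobin and plakophilin 4, did not pass (adjusted p = 0.584 and 0.551), and Dsg3 had 74, 30 and 5 reads against 13, 22 and 4 (adjusted p = 0.229). Of 12 tested planar cell polarity genes, Prickle3 and Dvl2 rose by log2 FC of 1.02 and 1.31 and Ptk7 fell by 2.38 on the log2 scale. The adjusted p of these 3 (edgeR) were 0.0144, 0.0182 and 0.0169 with all libraries and up to 0.0689, 0.0824 and 0.0854 without 1 library.

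**Figure D3:**
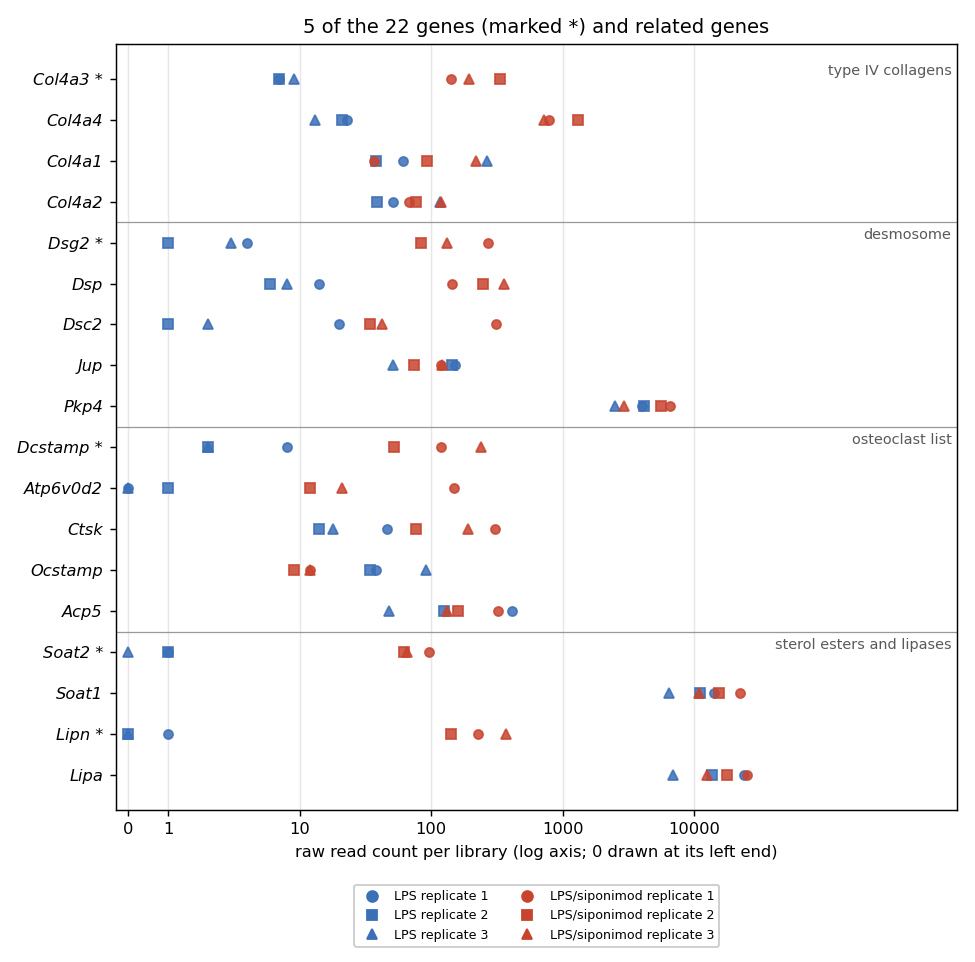
Raw read counts per library (log axis, 0 at the left end) of 5 of the 22 genes, marked with an asterisk, and of related genes in 4 groups. Col4a4 and Dsp separate the groups as Col4a3 and Dsg2 do by the rule. Col4a1, Jup, Acp5, Soat1 and Lipa overlap, and Ocstamp lies lower with LPS/siponimod (9 to 12 reads) than with LPS (34 to 92 reads).

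Lipid and sterol genes formed the last group. Lipn, an acid lipase of the epidermis, had 1, 0 and 0 reads under LPS and 228, 141 and 369 under LPS/siponimod, and with a single LPS read the ratio of pooled counts was 664 (exact counting interval 119 to 26250). Soat2 esterifies cholesterol in liver and intestine, and had 1, 1 and 0 reads against 97, 62 and 66, a ratio of 101 (exact counting interval 27.7 to 840). The widely expressed relatives Soat1, with 14154, 11116 and 6478 against 22168, 15350 and 10870 reads, and Lipa, with 23687, 13674 and 6874 against 25195, 17652 and 12560, overlapped between the groups (edgeR adjusted p = 0.453 and 0.914). The cholesteryl ester hydrolase gene Nceh1 fell by 1.04 on the log2 scale (SE 0.26, adjusted p = 0.0324, and up to 0.123 without 1 library).

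Osbpl3, an oxysterol-binding protein, had 3, 0 and 4 reads under LPS and 97, 85 and 85 under LPS/siponimod. It was the most even of the 22 genes across the LPS/siponimod libraries, with a coefficient of variation of 5.45%. Of 10 tested relatives Osbp rose by a log2 FC of 0.86 (edgeR adjusted p = 0.0113) and Osbpl7 fell by 1.59 on the log2 scale (adjusted p = 0.0247), and without 1 library these p reached 0.0561 and 0.101. Plcxd2, a phospholipase C X-domain protein, had 1, 3 and 7 reads against 428, 65 and 208, while its relatives Plcxd1 and Plcxd3 had at most 10 in any library. Rab30, a small GTPase of the Golgi, had 7, 5 and 10 against 91, 71 and 103. Its ratio of pooled counts, 10.8 (exact counting interval 7.01 to 17.6), was the smallest of the 22 genes.

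Cyp27b1 encodes the 1-alpha hydroxylase that makes active vitamin D, and macrophages are known to express it after Toll-like receptor or interferon signals. It had 7, 0 and 4 reads under LPS and 128, 72 and 124 under LPS/siponimod. Cyp24a1, which degrades active vitamin D and is a standard target of the vitamin D receptor, had 0 reads in all 6 libraries. The receptor gene Vdr had 12, 3 and 20 reads under LPS and 8, 7 and 9 under LPS/siponimod, too few to be tested. Of 4 tested genes of vitamin D metabolism and signalling other than Cyp27b1, none passed, among them Cyp27a1 (log2 FC 0.90, edgeR adjusted p = 0.456) and Rxra (-0.13, adjusted p = 0.836).

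In all, 115 genes were listed as relatives of 1 or more of the 22 genes in 14 families. Of these, 65 could be tested, and 9 were upregulated and 5 downregulated, with a median log2 FC of 0.09 beside -0.02 over all genes tested. This stands beside 13.6% upregulated and 11.7% downregulated of all genes tested, so that the upregulated share of relatives was near the background. A further 33 had at most 10 reads in every library. Only Col4a4 and Dsp among the 14 called relatives stayed past the thresholds in each of the 6 fits without 1 library. The other 12 calls were all lost without LPS replicate 2, whose removal left 651 DEGs of 3036. They were also lost without LPS/siponimod replicate 1, except for Osbp, and without LPS/siponimod replicate 3, except for Osbp and Ypel5. Klrk1, Paqr3, Slc4a2, Slc4a7, Ptk7 and Osbpl7 were lost without LPS replicate 1 as well, and Klrg2, Klrk1, Slc4a7 and Nceh1 without LPS/siponimod replicate 2. With the replicate number as a block, the polarity genes Vangl2 and Fzd3 were added as upregulated (edgeR adjusted p = 0.0342 and 0.0175) and Slc4a5 as downregulated (0.0083).

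The 22 genes differed in how evenly the replicates carried them. The coefficient of variation over the 3 LPS/siponimod libraries ranged from 5.45% for Osbpl3 to 115.5% for Rgcc, with a median of 50.6%. It was 14.8% for 6078 genes of like level and 41.3% for 187 other upregulated DEGs of like level with a fold change of 4 or more. Prickle1 (111%) and Gsg1 (98.4%) came next to Rgcc. Replicate 1 was the highest LPS/siponimod library for 8 genes, replicate 2 for 3 and replicate 3 for 11. The corresponding shares were 36.4%, 13.6% and 50.0% for the 22 genes, 37.4%, 9.63% and 52.9% for the 187 other DEGs, and 24.0%, 39.9% and 36.2% for the 6078 genes. Replicate 2 was thus seldom the highest both for the 22 genes and for other strongly upregulated genes, and replicate 3, the highest for the most genes of both sets, was also the library with the markers of other brain cells given above.

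**Figure D4:**
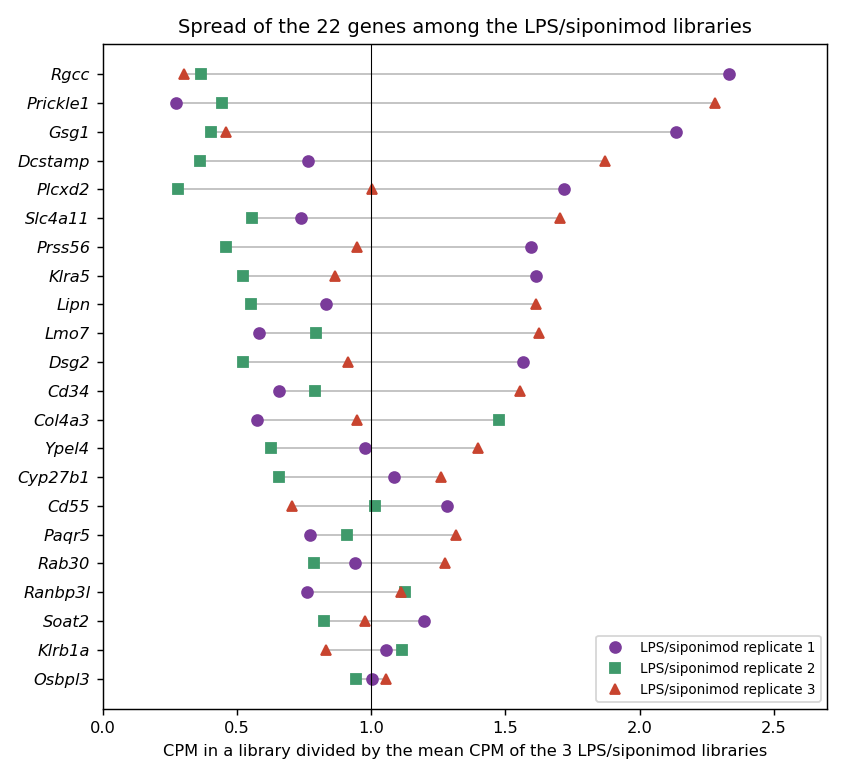
For each of the 22 genes, the CPM in each LPS/siponimod library divided by the mean CPM of these 3 libraries; the vertical line marks the mean, and genes are sorted by their coefficient of variation. Rgcc, Prickle1 and Gsg1 at the top rest mostly on 1 library, whereas Osbpl3, Klrb1a and Soat2 at the bottom are near 1 in all 3.

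At the limit of 10 reads with LPS, Klra5, Gsg1, Paqr5 and Rab30 reached exactly 10 in 1 library. Just outside lay Nr4a3, an orphan nuclear receptor gene, with 11, 10 and 10 reads against 871, 814 and 919. Next came Iqsec3, with 12, 3 and 4 against 433, 248 and 839, and Pde1a, which encodes a phosphodiesterase, with 12, 1 and 2 against 507, 357 and 290. At the limit of 50 reads with LPS/siponimod, Dcstamp, Prickle1 and Soat2 were the nearest inside, with lowest counts of 52, 61 and 62. Dcn, Gprc5a and Fosb were the nearest outside, each with a lowest count of 49. Dcn, which encodes the proteoglycan decorin, had 3, 0 and 4 reads against 456, 49 and 178. Gprc5a had 4, 1 and 3 against 78, 60 and 49, and the AP-1 gene Fosb 4, 10 and 3 against 49, 59 and 60. Of the genes just outside the limit of 10, all 3 had at least 248 reads in each LPS/siponimod library, whereas Klra5, Gsg1 and Rab30 just inside it had lowest libraries of 71 to 83 reads and Paqr5 of 145.

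Lists of well-known targets of 16 regulators were compared with the 22 genes, and none of the 22 was on any of them. The lists were short, from 7 to 45 genes, so absence from a list does not show that a gene is no target. How many listed targets were called differed between the lists. Any gene left aside by name that was on 1 of the 16 lists stayed in its counts. The rule fixed the direction of change for Fst, Snap25 and Faslg. Of 39 tested ATF4 and CHOP targets, which serve the integrated stress response, 29 were upregulated and none downregulated, with a median log2 FC of 2.09. MITF and TFEB targets, genes of lysosomes and pigment cells, had 9 of 16 up and none down, and CREB and cAMP targets 8 of 20 up and 1 down. Of NRF2 targets, 10 of 23 were up and none down. The aryl hydrocarbon receptor list had 3 of 4 up and none down. The glucocorticoid receptor list had 4 of 11 up and none down, and with the replicate number as a block 4 up and 1 down. These shares stand beside 13.6% of all tested genes. Without LPS replicate 2 or LPS/siponimod replicate 1 the upregulated numbers were 19 in either case for ATF4 and CHOP and 4 in either case for MITF and TFEB. Over all fits without 1 library they ranged from 3 to 9 for CREB, 2 to 10 for NRF2, 0 to 3 for the aryl hydrocarbon receptor and 2 to 5 for the glucocorticoid receptor.

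For the other regulator lists, the numbers of upregulated and downregulated genes stand beside 13.6% and 11.7% of all genes tested. They were 5 and 4 of 23 for p53 and 3 and 3 of 16 for PPAR. For HSF1 they were 3 and 0 of 16 (4 and 1 with the replicate number as a block). They were 4 and 1 of 20 for SREBP, and 0 and 1 of 10 for LXR (1 and 2 with the block). They were 2 and 0 of 6 for the retinoic acid receptor and 1 and 0 of 2 for MTF1. For HIF they were 2 and 6 of 26 and with the block 8 and 7. TGF-beta and SMAD targets, the list nearest to what Ranbp3l is known for, had 1 and 0 of 11 and with the block 3 and 0. Neuronal genes repressed by REST had 1 and 0 of 10 and with the block 4 and 0. These small numbers changed without single libraries, as did the number of upregulated genes over the whole table, which fell from 1633 to 469 without LPS replicate 2, 592 without LPS/siponimod replicate 1 and 762 without LPS/siponimod replicate 3. Without LPS replicate 2, LPS/siponimod replicate 1 or LPS/siponimod replicate 3 in turn, the upregulated SREBP targets were 0 each time. The downregulated HIF targets were 1 in each of these fits, and the downregulated p53 targets 1, 0 and 0. Without LPS replicate 3 the downregulated p53 targets were 7 and the downregulated PPAR targets 5. By DESeq2 and by the likelihood ratio test, 8 and 7 p53 targets were downregulated. Over all 6 fits without 1 library the upregulated numbers ranged from 2 to 7 for p53, 1 to 3 for PPAR, 0 to 2 for the retinoic acid receptor, 0 to 1 for MTF1 and 0 to 2 for TGF-beta and SMAD.

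Of 23 lists of tissue and cell type markers, 4 held 1 of the 22 genes each time. Cd34 is on the endothelial and the progenitor list, Klrb1a on that of T and NK cells, and Dcstamp on that of osteoclasts. Without Cd34, the 10 other endothelial markers summed to 194, 254 and 150 CPM under LPS and 102, 125 and 104 CPM under LPS/siponimod. The gene with the most reads among them was Cdh5, and Kdr and Emcn had no read in any library. The sum was lower in all LPS/siponimod libraries, but without Cdh5 it was 84.1, 156 and 89.2 against 69.6, 65.8 and 85.7 CPM, and these overlapped. Flt1 fell by 2.06 on the log2 scale (edgeR adjusted p = 0.00913) and was the only called marker of this list besides Cd34, while with the replicate number as a block Cdh5 and Pecam1 were downregulated too (adjusted p = 0.0142 and 0.00966). Esam, Tek and Tie1 had log2 FC of 0.30, 0.93 and 0.40 and did not pass (adjusted p = 0.471, 0.223 and 0.439).

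Progenitor and megakaryocyte markers without Cd34 summed to 404, 202 and 327 CPM with LPS and 386, 300 and 512 CPM with LPS/siponimod, led by Pf4, with Gata1 at 0 in all libraries. The 9 T and NK cell markers other than Klrb1a and Faslg summed to 12.9, 12.1 and 9.66 against 8.83, 10.4 and 9.29 CPM, led by Lck, and Cd3e, Cd3g, Nkg7 and Prf1 were at 0 throughout. Both sums overlapped between the groups. Markers of tissues in which others of the 22 genes are known were low but not absent. Epithelial and keratinocyte markers reached at most 1.70 CPM in sum, led by Cdh1, with Epcam, Krt5, Krt18 and Krt20 at 0. Kidney markers, led by Lrp2, reached at most 0.886 CPM, and testis and germ cell markers, led by Sycp3, at most 1.29 CPM in any library. The first 2 sums overlapped between the groups, and the last was lower in all LPS/siponimod libraries (0.472 to 0.721 CPM, against 0.757 or more). Liver markers, led by Apoa1, reached at most 0.592 CPM, and retina markers, led by Pde6b, at most 0.608 CPM. The liver and the retina sums overlapped between the groups. Fibroblast markers summed to 6.59, 5.54 and 12.2 CPM with LPS and 12.2, 5.35 and 11.5 CPM with LPS/siponimod. Without Dcn, which is itself just outside the rule, the sums were 6.51, 5.54 and 12.1 against 2.38, 4.22 and 6.95 CPM, and these overlapped too.

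The osteoclast list divided. Besides Dcstamp, the V-ATPase subunit gene Atp6v0d2 had 0, 1 and 0 reads under LPS and 150, 12 and 21 under LPS/siponimod (log2 FC 6.82, SE 1.53, edgeR adjusted p = 0.0242). The cathepsin K gene Ctsk had 46, 14 and 18 against 304, 77 and 189 reads (log2 FC 2.62, SE 0.68, adjusted p = 0.0349). Ocstamp, a partner of Dcstamp in cell fusion, had 38, 34 and 92 against 12, 9 and 12 and fell by 2.53 on the log2 scale (SE 0.53, adjusted p = 0.0199). The groups did not overlap for any of these 3 genes. Each call was lost without LPS replicate 2, LPS/siponimod replicate 1 or LPS/siponimod replicate 3, with adjusted p of up to 0.0977 for Atp6v0d2, 0.135 for Ctsk and 0.0981 for Ocstamp. Atp6v0d2 was also lost without LPS replicate 1, Ctsk without LPS replicate 3 and Ocstamp without LPS/siponimod replicate 2. Acp5, Nfatc1, Oscar, Itgb3 and Mmp9 missed the threshold (adjusted p = 0.872, 0.121, 0.0612, 0.0953 and 0.391). With the block Itgb3 was counted as upregulated and Oscar as downregulated (edgeR adjusted p = 0.00867 and 0.0367). Calcr, a defining marker of osteoclasts, had at most 2 reads. The 9 genes other than Dcstamp summed to 385, 289 and 1181 CPM with LPS and 384, 254 and 658 CPM with LPS/siponimod, most of it Mmp9. Without Mmp9 the sums were 69.3, 62.6 and 34.9 against 99.35, 94.8 and 119 CPM, higher in all LPS/siponimod libraries.

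The label of the cells was checked on 13 microglial markers, of which all had reads in every library. They summed to 8293, 7388 and 4762 CPM with LPS and 3210, 4747 and 2687 CPM with LPS/siponimod, led by Csf1r. Aif1 (IBA1) fell by 1.88 on the log2 scale (edgeR adjusted p = 0.0212), Itgam (CD11b) by 0.87 (adjusted p = 0.0112) and Cx3cr1 by 3.65 (adjusted p = 0.0392), while Sall1 rose by a log2 FC of 0.93 (adjusted p = 0.0433). All 4 calls were lost without LPS replicate 2, LPS/siponimod replicate 1 or LPS/siponimod replicate 3, those of Aif1, Cx3cr1 and Sall1 also without LPS replicate 1 and that of Sall1 without LPS replicate 3, with adjusted p of up to 0.0982, 0.0618, 0.147 and 0.138. The log2 FC of P2ry12, Tmem119, Csf1r, C1qa and C1qb were -3.40, -0.62, -1.38, -1.75 and -1.61, and none passed in the fit without a block. The study, with its own test, listed P2ry12 among its downregulated genes. The log2 FC of Trem2, Tyrobp and Ptprc were 0.85, -0.24 and -0.02 and did not pass either. With the replicate number as a block, 7 markers were downregulated and 1 was upregulated. Sall1 was no longer called in that fit (edgeR adjusted p = 0.0553). Whether the shift in these markers has a part in the rise of the 22 genes was not tested.

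The reads had been mapped to mRatBN7.2, and neighbouring genes were looked up in the RefSeq annotation of another assembly, GRCr8. The 22 genes lay on 11 chromosomes, with at most 4 on the same one. Of 37 flanking genes with counts, 23 could be tested, and 5 were upregulated and 2 downregulated, with a median log2 FC of 0.15, beside 13.6% and 11.7% of all genes tested. Col4a4 beside Col4a3 and Glce beside Paqr5, which encodes a heparan sulfate epimerase, were called in all fits without 1 library. Glce had 453, 424 and 647 reads under LPS and 4100, 2577 and 3068 under LPS/siponimod (log2 FC 2.44, SE 0.25, edgeR adjusted p = 0.0054). The other called neighbours were Nadk2 beside Ranbp3l (log2 FC 2.07), Mettl1 beside Cyp27b1 (1.18) and Pcf11 beside Rab30 (1.10), and, downwards, Vwa8 beside Rgcc (-1.31) and Fam234b beside Gsg1 (-1.31), each lost without LPS replicate 2. All of these but Pcf11 were also lost without LPS/siponimod replicate 1 or 3, and the highest adjusted p without 1 library were 0.0815, 0.161, 0.05003, 0.143 and 0.0893. With the replicate number as a block, Rims2 beside Dcstamp was upregulated too (log2 FC 2.05, adjusted p = 0.014, against 2.25 and 0.078 without the block). The remaining flanking genes included 13 with at most 10 reads in every library.

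Promoter sequences from RefSeq (GRCr8), 250 bases before to 50 bases after the start of a gene, were matched for 17 of the 22 genes, and no sequence was used for Lipn, Slc4a11, Gsg1, Dcstamp and Soat2. These windows were searched on both strands for 10 motifs, and the share of 27457 rat promoters that hold each motif is given beside the count. The AP-1 site TGACTCA was found for 1 gene, Ypel4 (4.53% of all promoters), and the E-box CACGTG for 1, Klrb1a (6.65%). The core of the antioxidant response element, TGACNNNGC, was found for Dsg2 and Lmo7, or 11.8% of the 17 against 12.2% of all. The TATA box TATAAA was found for Cyp27b1 and Prickle1 (14.3% of all). No window held the cAMP response element TGACGTCA (1.91% of all), the C/EBP-ATF element TGATGNAAT (1.05%), the CLEAR E-box (0.277%), which contains the shorter E-box, the NF-kB site (0.372%), the heat shock element (0.736%) or the REST site TTCAGCACC (0.379%). Base composition was 62.0% G and C at the median of the 17 promoters and 52.3% over all, and the ratio of observed to expected CpG was 0.564 against 0.417. A ratio of at least 0.6 was found for 35.3% of the 17 and 36.9% of all promoters. No motif was therefore common to more than 2 of the genes, and a match or its lack is a description of these letters only.

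The promoters of Ypel4, Cyp27b1 and Prickle1 are shown as examples with an AP-1 site or a TATA box before the start, and that of Col4a3 because its neighbour Col4a4 rose with it. Each is read 5′ to 3′ on the strand of its gene and ends 1 base before the start, and capitals mark the motif, an AP-1 site in Ypel4 and a TATA box in Cyp27b1 (read on the other strand) and Prickle1. The matches begin 67, 49 and 117 bases before the start. In GRCr8 they span chr3:90222612-90222861 (plus strand), chr7:64756376-64756625 (plus strand), chr7:126537555-126537804 (minus strand) and chr9:91323740-91323989 (plus strand), the last with no motif marked.
Ypel4: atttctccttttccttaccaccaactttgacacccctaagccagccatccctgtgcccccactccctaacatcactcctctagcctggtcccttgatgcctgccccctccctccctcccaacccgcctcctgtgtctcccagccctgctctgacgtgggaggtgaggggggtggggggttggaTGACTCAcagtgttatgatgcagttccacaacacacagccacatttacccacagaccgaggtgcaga
Cyp27b1: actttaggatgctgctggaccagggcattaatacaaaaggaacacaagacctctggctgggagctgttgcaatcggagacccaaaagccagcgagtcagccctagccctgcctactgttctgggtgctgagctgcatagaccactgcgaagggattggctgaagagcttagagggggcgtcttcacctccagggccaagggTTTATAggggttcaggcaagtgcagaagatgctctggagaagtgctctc
Prickle1: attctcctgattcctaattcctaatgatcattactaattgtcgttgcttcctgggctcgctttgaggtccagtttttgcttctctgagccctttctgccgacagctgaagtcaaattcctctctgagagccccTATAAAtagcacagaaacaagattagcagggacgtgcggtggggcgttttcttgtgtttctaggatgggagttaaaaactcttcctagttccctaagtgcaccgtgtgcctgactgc
Col4a3: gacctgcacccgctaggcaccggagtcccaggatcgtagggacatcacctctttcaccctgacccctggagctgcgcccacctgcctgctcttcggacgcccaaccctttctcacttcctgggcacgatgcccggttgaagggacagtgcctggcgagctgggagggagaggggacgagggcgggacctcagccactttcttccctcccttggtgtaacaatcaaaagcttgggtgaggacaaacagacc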

How the data were processed

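The authors prepared polyA-selected libraries, made reads with bcl2fastq (version 2.20.0.422) and, in the CLC Genomics Workbench, trimmed them, mapped them to the rat genome (mRatBN7.2) and deposited 1 table of raw counts per library, listing the total for each gene. Their handling of strand and of reads matching several genes is not given in the sources used here. A row without a name or value (1 in all) was left out.

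Members were found by their raw counts. The 22 genes, the lists of regulators and tissues and the families of relatives were chosen with earlier results of these data known, and the families and functional groups after the names of the 22 genes were seen. Values were given for all members, the genes nearest to each limit, the microglial markers and relatives called or needed to describe a family, and the relatives were chosen after their values were seen. Some listed genes are not reported here.

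All counts were tested with edgeR 4.0.16 under R 4.3.3: filterByExpr (minimum count 10, minimum total 15), TMM, glmQLFit and glmQLFTest with no term but the group, and p-values were adjusted after Benjamini-Hochberg over 11977 genes. DEGs had a fold change of 1.5 or more at an adjusted p no higher than 0.05. A standard error is the log2 FC divided by the square root of the F statistic. For 1 gene in 3 against 3 libraries, the smallest p that an exact permutation test allows is 0.10. CPM are counts scaled to the total of each library. Counting intervals are exact binomial intervals (95%), and the floor was 3 counts per library; both cover counting error only. Levels of different genes were not compared, since CPM are not divided by length.

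Replicate numbers 1 to 3 occur in both groups. Deviations from the group means correlated over genes by 0.42, 0.545 and 0.611 between same-numbered libraries, so the numbers were taken, from these values alone, to pair the libraries, and a fit with the number as a block was an alternative. Others were RLE normalization, the likelihood ratio test, DESeq2 (version 1.42.0), no filter, a mean of at least 1 CPM, scaled counts or other limits in the rule, and each library left out in turn. The procedure was tested on simulated data.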

Additional observations from a re-analysis of the deposited data

How the results depend on the processing

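The number of genes that met the rule was 22 with raw counts, 18 after scaling to the mean library size (17 of them among the 22) and 17 with TMM. Scaling removed Dcstamp, Gsg1, Klra5, Paqr5 and Rab30 and added Gprc5a. Limits of 5 and 100 reads left 5 genes, Ypel4, Cd34, Lipn, Slc4a11 and Lmo7, and limits of 15 and 40 reads gave 51, including all 22. With any 1 library left out, between 22 and 42 genes met the rule, since fewer libraries had to meet it. DEGs numbered 3036 by edgeR's quasi-likelihood test, 3062 with RLE, 3898 by DESeq2, 3570 by the likelihood ratio test, 2542 with no filter and 2886 with a mean of at least 1 CPM. The fit blocked on the replicate number, which pairs the libraries, gave 4074. Leaving out 1 library gave between 651 DEGs (without LPS replicate 2) and 3713 (without LPS replicate 3). The log2 FC of the 22 genes ranged from 3.14 to 10.9 over the alternatives, and its sign was fixed by how the genes were chosen. Reads without molecular identifiers and LPS counts of 10 or fewer limit the ratios. Their counting intervals are wide and do not include the spread between replicates.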
